A study of Homo sapiens with 6 samples.

Results

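Insulin and the insulin-like growth factors signal through receptor tyrosine kinases at the cell surface, and the IRS proteins and GAB1 are the adaptors that dock on the activated receptors and pass the signal to PI3K, Akt and the ERK cascade. The IGF-binding proteins are secreted carriers that hold the ligands outside the cell and so limit or extend their access to the receptors. Colon epithelial and colon carcinoma cells respond to this axis with growth and survival, and IRS4, whose gene is X-linked, is expressed in few adult tissues.

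The data described here are 10 genes of this axis in the 6 RNA-seq libraries of the study, namely the adaptors IRS1, IRS2, IRS4 and GAB1, the receptors INSR and IGF1R, the ligand IGF1 and the binding proteins IGFBP2, IGFBP4 and IGFBP6. They are 10 of the 60546 gene identifiers in the deposited table and were found by their gene symbols. The list was chosen by a rule that already used the silence of IRS4 under one of the labels, so the members' differences between the labels are given as descriptions, without a test. A gene entered the comparison across genes when 3 or more libraries held 1 normalized read or more, and 9 of the 10 members passed, IGF1 being the exception. IRS4 and IGFBP4 passed only through the libraries in which they were high.

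The study asked how GOLPH3, a Golgi phosphoprotein, acts in colon cancer cells. By the study's account HCT-116, a human colon carcinoma line, was infected with the viral vector PMSCV carrying either the GOLPH3 coding sequence or nothing, and each stable line was selected with puromycin. The cells sequenced came from different generations of each line, and the sample names carry the numbers P8, P12 and P13 for GOLPH3 replicates 1, 2 and 3 and P12, P11 and P13 for Vector replicates 1, 2 and 3. All 6 samples are annotated as wild type in genotype and were grown in the same serum-containing medium. Each label stands for 1 stable line, so that the label and the history of the line cannot be told apart. The p-values measure only the spread between generations of 1 line, from which technical differences cannot be separated.

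The GOLPH3 transcript itself was not higher under its own label. Its normalized reads were 1629.5, 1272 and 1383 under the GOLPH3 label and 1968, 1892 and 1472 under the Vector label, a log2 difference of -0.31 (standard error 0.27, limma adjusted p = 0.609). The groups are therefore called by their labels, and whether the libraries match their labels, or the Vector line is HCT-116 alone, was not tested. Each library held 15708846 to 21900764 reads, of which mitochondrial genes took 4.41% to 9.97%. The deposited values were read counts divided by a factor per library, called normalized reads below, and 3 reads, the limit that a count of 0 allows, corresponded to 2.47 to 3.29 of them. Such limits cover counting error only. Of 12 colon epithelial markers, EPCAM, KRT8, KRT18, KRT19 and CDH1 were abundant in every library, whereas KRT20 and CDX1 were at or under 3 reads in all of them. CDH17, VIL1, LGALS4 and GPA33 had at most 9 reads in any library. CDX2 had 247, 261 and 358 normalized reads under the GOLPH3 label and 415, 184 and 897 under the Vector label. The summed level of the 12 ranged from 62856 to 134427 normalized reads under the GOLPH3 label and from 30021 to 41160 under the Vector label. KRT8 was the largest part of that sum in every library. A list of 8 fibroblast markers summed to 825 to 1517 and 488 to 810 normalized reads, nearly all of it COL1A1, with DCN at 0 everywhere. By the limma test 2 of 10 colon epithelial markers compared were higher and 1 of 6 fibroblast markers lower under the GOLPH3 label. Over all genes tested 0.953% were higher and 4.12% lower. The part of these markers in the results below was not tested.

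The promoters of 4 members are shown because their transcripts behaved differently. IRS1 was abundant under both labels, IRS4 and IGFBP4 had reads under the Vector label with at most 1 read in any library labelled GOLPH3, and IGF1 was near 0 everywhere. Each sequence is the 250 bases before the farthest upstream RefSeq start of the gene in GRCh38.p14, read 5′ to 3′ on the strand of the gene, with CG dinucleotides in capitals.
IRS1 (chr2:226799821-226800070, minus strand): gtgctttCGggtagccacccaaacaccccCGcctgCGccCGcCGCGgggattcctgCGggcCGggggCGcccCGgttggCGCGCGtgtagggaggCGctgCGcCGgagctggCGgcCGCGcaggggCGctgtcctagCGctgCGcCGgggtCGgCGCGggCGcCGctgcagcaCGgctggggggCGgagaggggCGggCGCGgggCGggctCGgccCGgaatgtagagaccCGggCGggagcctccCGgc
IRS4 (chrX:108736564-108736813, minus strand): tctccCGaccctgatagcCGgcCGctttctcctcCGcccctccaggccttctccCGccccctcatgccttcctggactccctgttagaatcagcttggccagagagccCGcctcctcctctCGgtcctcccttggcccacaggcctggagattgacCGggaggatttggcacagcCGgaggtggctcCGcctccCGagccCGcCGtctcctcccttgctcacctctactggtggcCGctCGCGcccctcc
IGFBP4 (chr17:40443200-40443449, plus strand): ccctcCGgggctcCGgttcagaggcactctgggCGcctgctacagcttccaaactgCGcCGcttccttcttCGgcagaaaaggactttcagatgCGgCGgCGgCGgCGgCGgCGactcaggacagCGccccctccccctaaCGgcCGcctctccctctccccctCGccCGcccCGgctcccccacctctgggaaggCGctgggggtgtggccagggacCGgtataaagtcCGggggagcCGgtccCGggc
IGF1 (chr12:102481748-102481997, minus strand): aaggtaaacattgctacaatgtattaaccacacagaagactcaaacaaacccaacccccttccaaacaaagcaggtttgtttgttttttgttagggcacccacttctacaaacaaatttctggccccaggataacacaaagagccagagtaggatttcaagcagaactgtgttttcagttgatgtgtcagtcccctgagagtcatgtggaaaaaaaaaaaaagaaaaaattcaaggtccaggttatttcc
The window of IRS1 held 39 CG dinucleotides, more than 97.3% of the 35116 promoters in the same RefSeq table, whose median was 11. The IRS4 window held 16 and the IGFBP4 window 24, which exceeded 59.0% and 76.3% of promoters. The IGF1 window held 0. Entries were found for 9 of the 10 members. Among the other members the count was 42 for IRS2, 28 for INSR, 48 for IGF1R, 7 for IGFBP2 and 9 for IGFBP6. The richest window was that of IGF1R and the poorest that of IGF1. IGFBP2 and IGFBP6, abundant under both labels, held fewer CG than IRS4 and IGFBP4. The count, taken at 1 start per gene, thus did not set apart the 2 members silent under the GOLPH3 label alone. Which start these cells used was not tested. The IGFBP6 window begins at 53097417 and the GENCODE gene at 53097436, so most of that window lies inside the gene. Both strands were searched for the TATA box TATAAA, the GC box GGGCGG and the forkhead motif GTAAACA, which were present in 10.7%, 42.6% and 2.98% of all promoters. TATAAA was found in IGFBP4 alone among the 9 members, and GTAAACA in IGF1 and IGFBP6. The GC box, which contains a CG and so overlaps with that count, was present in every member window but that of IGF1, with 5 matches in IRS2 and 2 in IRS4. These are matches of letters, and no binding was measured.

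**Figure D1:**
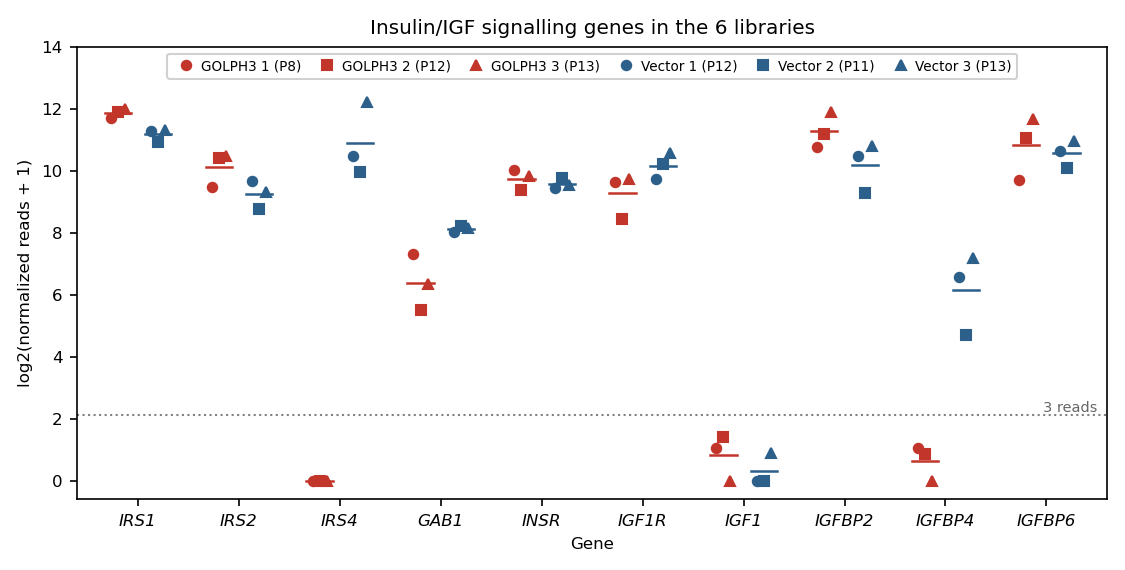
Level of the 10 genes in each library, as log2(normalized reads + 1), with red points for the 3 libraries labelled GOLPH3, blue points for the 3 labelled Vector, a bar at each group's mean and a dotted line at the largest value that 3 reads have in any of the 6 libraries. IRS4 lies at 0 in all 3 red points and far above the line in all 3 blue points, and IGFBP4 has the same form at a lower level.

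IRS4, an adaptor that recruits PI3K much as IRS1 does, had no read under the GOLPH3 label and a level above that of most genes under the Vector label. The gene (ENSG00000133124) occupies chromosome X from 108732482 to 108736409, minus strand, on GRCh38 as annotated by GENCODE 29. Its normalized reads were 0, 0 and 0 under the GOLPH3 label and 1412, 1006 and 4831 under the Vector label, from 1372, 918 and 5629 reads. The Vector libraries thus differed among themselves by 4.80-fold, with Vector replicate 3 far above the other two, and their mean was 2416 ± 2101 (SD, n = 3). Against the limit of 3 reads per library, IRS4 was at least 750-fold lower in the libraries labelled GOLPH3 than the Vector mean, and at least 312-fold lower than the lowest Vector library.

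Per kilobase of exon, IRS4 exceeded 91.4%, 88.3% and 98.1% of 25890 genes in Vector replicates 1, 2 and 3. Genes annotated on the same bases were small beside it. AL035425.2, on the same strand over 206 bases, had 0 normalized reads in each GOLPH3 replicate and 1.03, 0 and 7.72 in the Vector replicates. The antisense gene AL035425.1, which overlaps the 5′ end over 399 bases, had 0 normalized reads under the GOLPH3 label and 53.5, 35.1 and 76.4 under the Vector label. How the counting used strand is not given in the sources used here, so reads of IRS4 and of its antisense partner could not be separated over those bases.

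IRS4 shared its pattern with many genes outside the pathway. No more than 3 reads in each GOLPH3 replicate together with 50 or more normalized reads in each Vector replicate were found for 174 genes, IRS4 included. The 5 genes nearest to IRS4 by Euclidean distance over the 6 values of log2(normalized reads + 1) were ROBO1 (distance 1.91, Pearson r = 0.993), CADM1 (1.95, r = 0.997), UCHL1 (1.96, r = 0.998), AL035425.4 (2.07, r = 0.995) and HOXD13 (2.22, r = 0.999). UCHL1 is also one of the HEK293 markers below. These correlations run over the same 6 libraries and mostly restate that all 5 genes were near 0 in one group. ROBO1, a receptor for Slit guidance cues, had 0, 0 and 2.13 normalized reads against 2348, 1315 and 3419. AL035425.4 lies on the strand of IRS4 at chromosome X from 108719949 to 108724944, 7537 bases from it, and had 0, 0.825 and 1.07 normalized reads against 2477, 2493 and 4083.

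Most markers of another laboratory line were, like IRS4, lower under the GOLPH3 label. HEK293 is a kidney-derived line with neuronal features, and a list of 8 of its markers (NEFL, NEFM, INA, VIM, CDH2, LIN28B, UCHL1 and PAX2) summed to 147, 157.5 and 144 normalized reads under the GOLPH3 label and to 6846, 3961 and 7830 under the Vector label. Of the 8, 7 could be compared, and 6 were lower under the GOLPH3 label at a limma adjusted p under 0.05, beside 4.12% of all genes tested. The list was chosen with earlier results of these data known, so nothing is read from that count. In every library labelled GOLPH3, 5 of the 8 were at or under 3 reads. INA was at or under 3 reads in all 6 libraries, and PAX2 had 112 to 134 normalized reads under the GOLPH3 label against 88.7 to 148. VIM and CDH2 encode vimentin and N-cadherin, which the study used as mesenchymal markers. By western blot it reports both proteins raised and E-cadherin lowered in GOLPH3-overexpressing cells, with the opposite in GOLPH3-silenced cells. The RNA of VIM and CDH2 was lower here under the GOLPH3 label. That of CDH1, which encodes E-cadherin, had means of 2970 under the GOLPH3 label and 1405 under the Vector label (limma adjusted p = 0.0578). The blots measure protein and these values RNA. Vector replicate 2 had both the lowest list sum and the lowest IRS4 level of the Vector libraries, and Vector replicate 3 the highest of both. Of the 6 lower markers, CDH2 and UCHL1 had that order and VIM, NEFL, NEFM and LIN28B did not. In Vector replicates 1, 2 and 3 NEFL had 372, 383 and 742 normalized reads. NEFM had 346, 501 and 612, LIN28B 727, 641 and 639, and VIM 3407, 1653 and 3194. The part of these markers in the IRS4 difference was not tested, and in bulk RNA fewer cells with a transcript and less of it per cell cannot be told apart.

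IRS1, the founding member of the adaptor family and a substrate of both receptors, varied least among replicates of the 3 IRS genes and lay higher under the GOLPH3 label. The gene (ENSG00000169047, chromosome 2 from 226731317 to 226799759, minus strand) had 3341, 3809 and 4070.3 normalized reads under the GOLPH3 label and 2484, 1959.9 and 2572 under the Vector label. The lowest of the former lay above the highest of the latter. The means were 3740 ± 369.7 and 2339 ± 331 (SD, n = 3), a ratio of 1.60, and the log2 difference was 0.68 (standard error 0.27). Within P12 it was 0.62 and within P13 0.66, so both pairs of libraries with a shared P number gave nearly the same difference.

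IRS2, which couples mainly to PI3K and is itself a transcriptional target of FOXO factors, was less even among replicates. The gene (ENSG00000185950, chromosome 13 from 109752698 to 109786568, minus strand) had 720, 1357 and 1423 normalized reads under the GOLPH3 label and 809, 431 and 639 under the Vector label. GOLPH3 replicate 1 lay below Vector replicate 1, so the groups overlapped. The means were 1167 ± 388 and 626 ± 189.6 (SD, n = 3), and the log2 difference was 0.88 (standard error 0.36), with 0.75 within P12 and 1.15 within P13.

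The 3 IRS genes can be set side by side once their levels are divided by exon length. Their summed level was 424, 549 and 584 normalized reads per kilobase under the GOLPH3 label and 708, 506 and 1567 under the Vector label, so the 2 ranges overlapped and Vector replicate 3 stood apart. IRS4 made up 50.7%, 50.6% and 78.5% of that sum in Vector replicates 1, 2 and 3 and none of it under the GOLPH3 label. IRS1 made up 79.1%, 69.6% and 70.0% under the GOLPH3 label and 35.2%, 38.9% and 16.5% under the Vector label. The ratio of IRS1 to IRS2 overlapped between the labels, at 3.79, 2.29 and 2.34 against 2.51, 3.72 and 3.29. The make-up of the adaptor pool thus differed by the presence of IRS4, while the proportion between the other two overlapped between the labels.

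**Figure D2:**
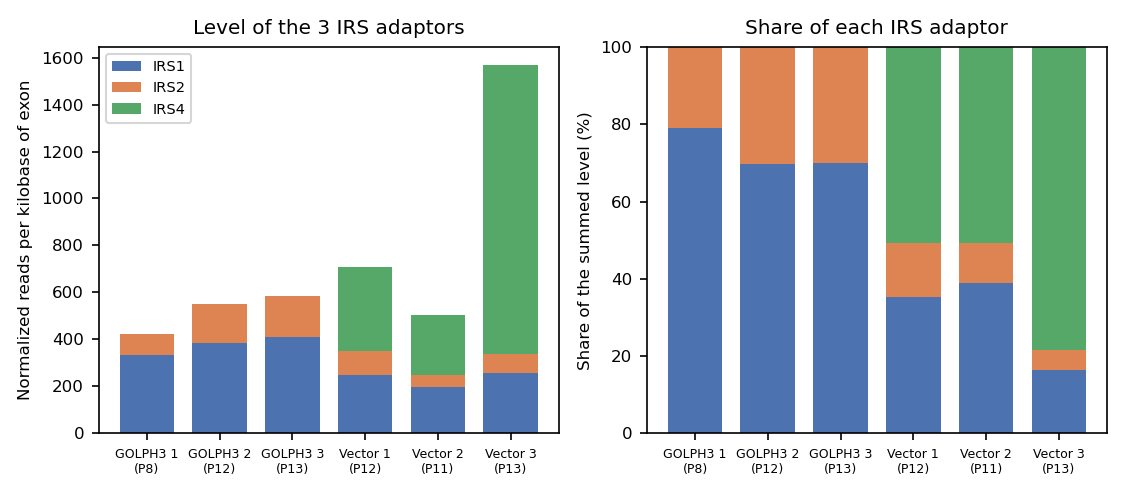
Left, level of IRS1, IRS2 and IRS4 stacked for each library in normalized reads per kilobase of exon; right, the same as a share in percent of their sum. The green IRS4 part is 50.6% to 78.5% of the bars labelled Vector and missing from those labelled GOLPH3, and the blue and orange parts together are lower in every Vector bar than in any GOLPH3 bar.

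GAB1, a docking adaptor that binds SHP2 and PI3K downstream of several receptor tyrosine kinases, was the remaining adaptor. The gene (ENSG00000109458, chromosome 4 from 143336762 to 143474568, plus strand) had 157, 44.5 and 81.1 normalized reads under the GOLPH3 label and 258, 298 and 283 under the Vector label. All 3 Vector libraries lay above all 3 libraries labelled GOLPH3, and the Vector libraries were much the closer to each other, spanning 1.15-fold against 3.52-fold. The means were 94.1 ± 57.2 and 280 ± 20.03 (SD, n = 3), 2.97-fold apart, and the log2 difference was -1.74 (standard error 0.45), with -2.51 within P12 and -1.79 within P13.

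INSR, the insulin receptor, had overlapping levels under the 2 labels. The gene (ENSG00000171105, chromosome 19 from 7112255 to 7294034, minus strand) had 1041, 661 and 918 normalized reads under the GOLPH3 label and 689.6, 878 and 750.1 under the Vector label. The groups overlapped over most of their range. The means were 873 ± 194 and 772 ± 95.9 (SD, n = 3), and the log2 difference of 0.16 was smaller than its standard error of 0.29. It was -0.062 within P12 and 0.29 within P13.

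IGF1R, the receptor for IGF1 and IGF2, had a lower mean under the GOLPH3 label, with groups that overlapped. The gene (ENSG00000140443, chromosome 15 from 98648539 to 98964530, plus strand) had 795, 346 and 853 normalized reads under the GOLPH3 label and 846, 1186 and 1510.4 under the Vector label. GOLPH3 replicate 3 lay just above Vector replicate 1, and GOLPH3 replicate 2 lay far below every other library. The means were 665 ± 277 and 1181 ± 332 (SD, n = 3), and the log2 difference was -0.90 (standard error 0.38), with -1.29 within P12 and -0.82 within P13. Genes annotated inside the IGF1R span had at most 9.44 normalized reads each.

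The ratio of the receptors within a library differed between the labels. Per kilobase of exon, the ratio of INSR to IGF1R was 1.75, 2.54 and 1.44 under the GOLPH3 label and 1.09, 0.987 and 0.662 under the Vector label. INSR thus exceeded IGF1R in all 3 libraries labelled GOLPH3 and slightly in Vector replicate 1. In Vector replicate 3 INSR was clearly the lower of the pair. In Vector replicate 2 the receptors were nearly level, with a ratio of 1.01 when the longest transcript was used as length. The ratio did not overlap between the labels although each receptor's own level did. This ratio was computed after the levels had been seen and was not tested.

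**Figure D3:**
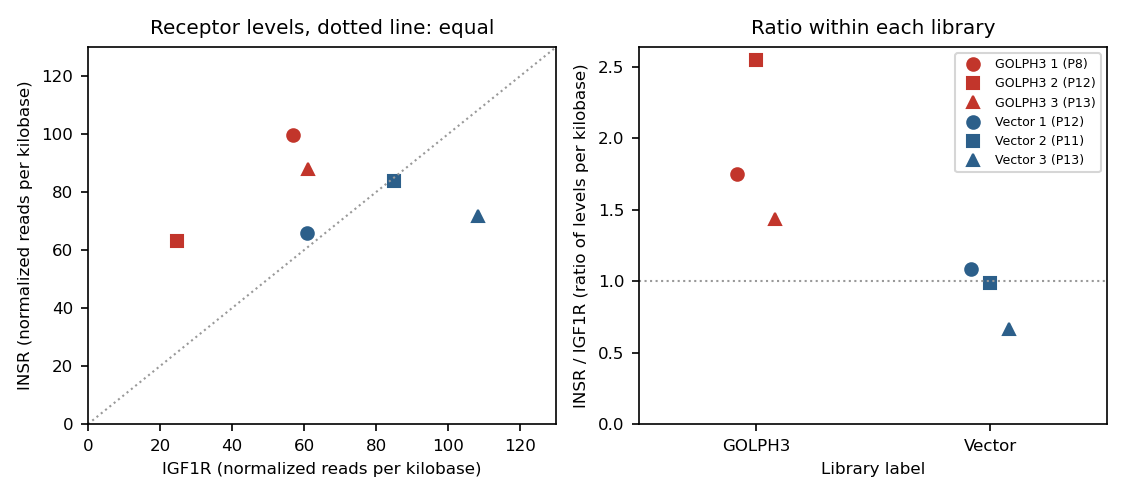
Left, INSR against IGF1R in normalized reads per kilobase of exon, 1 point per library, with a dotted line of equal levels; right, the ratio of INSR to IGF1R within each library, with a dotted line at 1. Red GOLPH3 points all lie above the line of equality, at ratios of 1.44 to 2.54, and blue Vector points lie at 0.662 to 1.09.

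IGF1, the ligand of IGF1R made mainly by liver and stromal cells, was not detected above the counting limit in any library. The gene (ENSG00000017427, chromosome 12 from 102395874 to 102481744, minus strand) had 1, 2 and 0 reads under the GOLPH3 label and 0, 0 and 1 under the Vector label. No fold is given for it, as both groups were under 3 reads. HELLPAR, a long non-coding RNA on the opposite strand that shares 6723 bases with the IGF1 gene, had 56.9 to 394 normalized reads, and no library had more than 2 reads counted for IGF1.

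The 3 binding proteins behaved differently from each other. IGFBP2, a carrier often raised in carcinomas, had 1747, 2317 and 3826 normalized reads under the GOLPH3 label and 1439, 623 and 1781 under the Vector label. The gene (ENSG00000115457) lies on chromosome 2 from 216632828 to 216664436 on the plus strand. GOLPH3 replicate 1 fell just short of Vector replicate 3, so the groups overlapped by a narrow margin. The means were 2630 ± 1074 and 1281 ± 595 (SD, n = 3), 2.05-fold apart, and the log2 difference was 1.09 (standard error 0.42), with 0.69 within P12 and 1.10 within P13.

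IGFBP4, a carrier that is cleaved by the protease PAPP-A and otherwise withholds IGFs from the receptor, followed the pattern of IRS4 at a lower level. The gene (ENSG00000141753, chromosome 17 from 40443461 to 40457731, plus strand) had 1, 1 and 0 reads under the GOLPH3 label and 91, 23 and 170 under the Vector label. Its normalized reads were 1.07, 0.825 and 0 against 93.7, 25.2 and 146. The Vector libraries were ordered as for IRS4, with replicate 2 lowest and replicate 3 highest, and spanned 5.79-fold with a mean of 88.3 ± 60.5 (SD, n = 3). By the ratio of the summed reads, scaled by library, IGFBP4 was 143-fold lower under the GOLPH3 label, with an exact 95% interval of 39.4 to 1190.4 that covers counting error only.

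IGFBP6, a carrier with a preference for IGF2, had the highest mean of the members per kilobase of exon under both labels and varied widely among replicates. The gene (ENSG00000167779, chromosome 12 from 53097436 to 53102345, plus strand) had 829.8, 2151 and 3299 normalized reads under the GOLPH3 label and 1613, 1088 and 1976 under the Vector label. The range of the Vector libraries lay inside that of the libraries labelled GOLPH3. The means were 2093 ± 1235 and 1559 ± 446 (SD, n = 3), and the log2 difference of 0.25 was smaller than its standard error of 0.45. Without GOLPH3 replicate 3 it was -0.18.

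**Figure D4:**
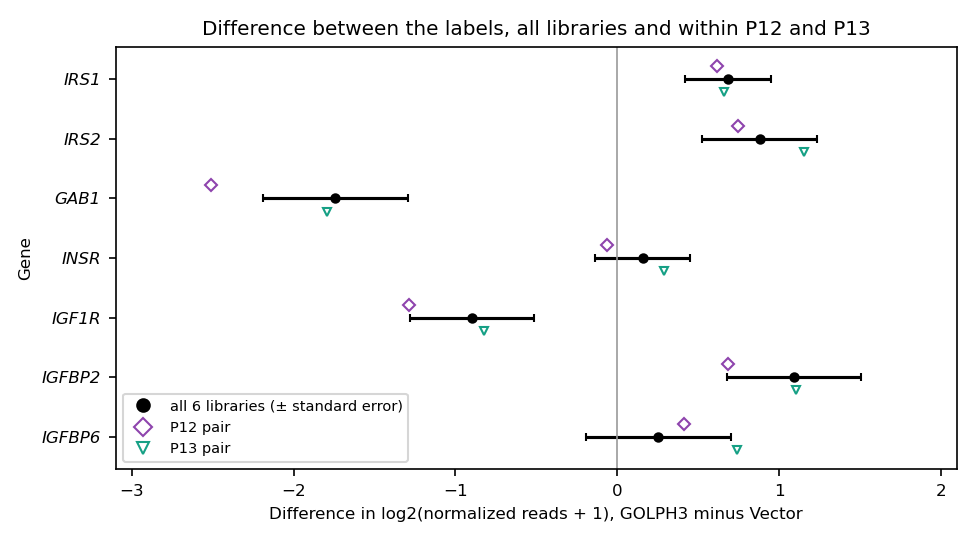
Difference in log2(normalized reads + 1) of the libraries labelled GOLPH3 minus those labelled Vector for 7 genes, with black points and standard error bars for all 6 libraries, diamonds for the P12 pair and triangles for the P13 pair; IRS4, IGFBP4 and IGF1 had at most 2 reads in each library labelled GOLPH3 and are left out. IRS1, IRS2 and IGFBP2 lie to the right in both pairs, GAB1 and IGF1R to the left, and INSR crosses 0.

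Of the 9 members compared, 5 had a positive log2 difference and 4 a negative one, with a median of 0.16 beside 0.02 over all 26536 genes. Their directions were the same within P12 and within P13 in 8 of 9, the exception being INSR. IRS4, IGFBP4 and GAB1 did not overlap between the labels in the lower direction and IRS1 in the higher, against 22.0% of all genes tested in either direction. Since the members were picked with this contrast known, and IRS4 and IGFBP4 passed the filter only through the Vector libraries, nothing is read from these counts.

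The order of the members by level per kilobase of exon differed between the labels mainly through IRS4. Under the GOLPH3 label it ran from IGFBP6 (1555 ± 918, SD, n = 3) through IGFBP2 (552 ± 225), IRS1 (376 ± 37.1), IRS2 (143 ± 47.7), INSR (83.6 ± 18.6), IGF1R (47.7 ± 19.9) and GAB1 (9.30 ± 5.65) to IGFBP4, IGF1 and IRS4, all below 1. The neighbours IGFBP6 and IGFBP2, IGFBP2 and IRS1, and IRS2 and INSR overlapped in their ranges, as did the last 3 genes. Under the Vector label it ran from IGFBP6 (1158 ± 332) through IRS4 (615 ± 535), IGFBP2 (269 ± 125), IRS1 (235 ± 33.2), IGF1R (84.7 ± 23.8), IRS2 (77.0 ± 23.3), INSR (73.9 ± 9.18), IGFBP4 (40.1 ± 27.5) and GAB1 (27.7 ± 1.98) to IGF1. Among these neighbours the ranges were separate between IRS1 and IGF1R and between GAB1 and IGF1 and overlapped elsewhere. With the longest transcript as length, INSR (86.3 ± 10.7) came before IRS2 under the Vector label.

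The rest of the pathway was read from a list of 65 other genes sorted by role. Of these, 63 could be compared, and 4 (6.35%) had an adjusted p under 0.05, all lower under the GOLPH3 label, beside 5.07% of all genes tested, of which 4.12% lower and 0.953% higher. With the P number as a block, a fit that rests on the P12 and P13 pairs alone, 10 of the 63 were higher and 9 lower. The P8 and P11 libraries are fitted exactly there, so the p-values and counts of that fit are not comparable with the others. The unadjusted p was under 0.05 for 3 genes in the higher and 9 in the lower direction. The median log2 difference of the list was 0.12, beside 0.02 over all genes. INS, the insulin gene, had 0 reads in every library and IGFBP1 had 1 read in all, and neither could be compared.

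**Figure D5:**
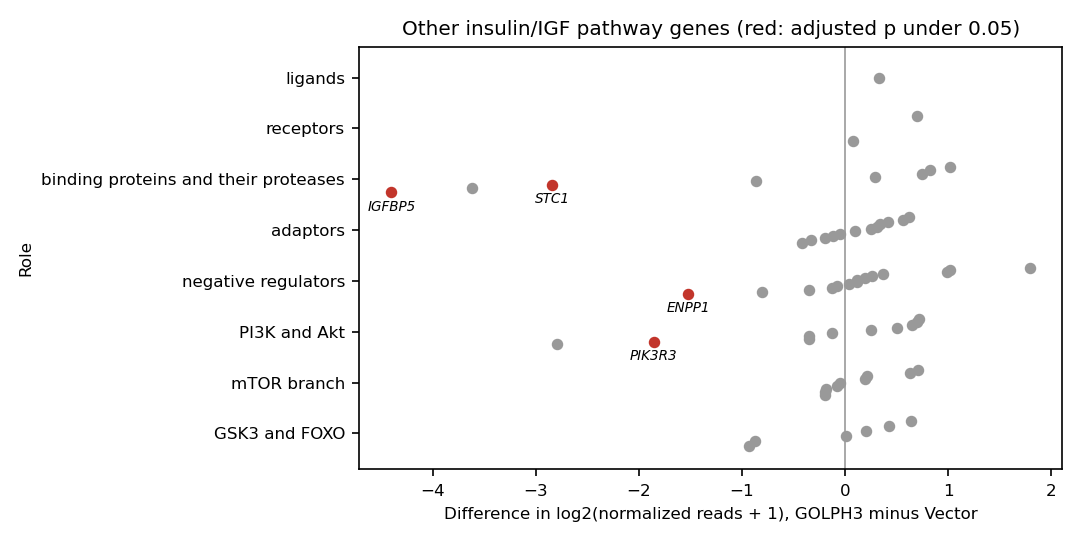
Difference in log2(normalized reads + 1) of the libraries labelled GOLPH3 minus those labelled Vector for the pathway genes outside the 10 members, 1 point per gene, arranged by role, with genes at or under 3 reads everywhere left out. The 4 red genes with a limma adjusted p under 0.05 all lie to the left, between -4.40 and -1.52, while most grey points lie between -1 and 1.

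Among ligands and receptors none passed the test. IGF2, the second ligand of IGF1R, had 23.6, 17.3 and 21.3 normalized reads under the GOLPH3 label and 14.4, 13.1 and 22.3 under the Vector label (log2 difference 0.33, standard error 0.52, limma adjusted p = 0.795). IGF2R, a scavenging receptor that clears IGF2, had 3579, 4367 and 3641 against 3741, 3269 and 3947 normalized reads (log2 difference 0.08, standard error 0.26, limma adjusted p = 0.911). INSRR, the insulin receptor-related receptor, had at most 7.72 normalized reads in any library (log2 difference 0.70, limma adjusted p = 0.726).

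Among 8 binding proteins and regulators of their proteolysis compared, 2 were lower and none higher. IGFBP5, a carrier that also binds extracellular matrix, had 9.66, 0 and 4.27 normalized reads under the GOLPH3 label and 60.7, 35.1 and 236 under the Vector label. Its log2 difference was -4.40 (standard error 0.91, limma adjusted p = 0.0130, with 0.00341 to 0.132 over the alternatives other than the P block). The limma adjusted p was 0.0885 without Vector replicate 3 and 0.0878 with a pseudocount of 0.1. STC1, a stanniocalcin that inhibits PAPP-A, had 1.07, 2.47 and 5.34 normalized reads against 12.4, 38.3 and 30.9. Its log2 difference was -2.84 (standard error 0.68, limma adjusted p = 0.0304, with 0.00476 to 0.157 over the alternatives). The call was lost without GOLPH3 replicate 1 or 2 or Vector replicate 2 or 3, at 0.0642 to 0.136. It was also lost with quantile normalization (limma adjusted p = 0.0511) and with a pseudocount of 0.1 (limma adjusted p = 0.0592). All libraries labelled GOLPH3 lay below all Vector libraries for both genes.

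None of the 13 other adaptors passed, against 2 higher with the P number as a block. The smallest p belonged to DOK5, an adaptor of the DOK family, which was at or under 3 reads in every library, with 0, 0 and 0 against 2, 2 and 3 reads, and no fold is given for it. GAB2, a paralogue of GAB1, had 149, 236 and 191 normalized reads under the GOLPH3 label against 186, 167 and 176 (log2 difference 0.10, standard error 0.34, limma adjusted p = 0.912). GAB2 was named after its values were seen.

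Of 14 negative regulators, 1 was lower. ENPP1, a membrane phosphodiesterase that inhibits the insulin receptor, had 356, 137 and 163 normalized reads under the GOLPH3 label and 472, 768 and 522 under the Vector label. Its log2 difference was -1.52 (standard error 0.40, limma adjusted p = 0.0495, with 0.00723 to 0.182 over the alternatives other than the P block). The call was lost without GOLPH3 replicate 2 or 3 or any Vector replicate, at 0.116 to 0.182. It was also lost with all 6 libraries kept, at 0.0724 to 0.0951. That held for edgeR, quantile normalization, a pseudocount of 0.1, a value of at least 1 in every library and the replicate block. SOCS1, a feedback inhibitor that targets IRS proteins for degradation, had 95.5, 115 and 153 against 55.6, 18.6 and 36.0 normalized reads and missed the threshold (log2 difference 1.79, standard error 0.48, limma adjusted p = 0.0553). It was named after its values were seen.

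Of 10 genes of PI3K and Akt, 1 was lower. PIK3R3, a regulatory subunit of PI3K that binds IRS proteins, had 62.3, 37.1 and 50.2 normalized reads under the GOLPH3 label and 164, 134 and 262 under the Vector label. Its log2 difference was -1.85 (standard error 0.41, limma adjusted p = 0.0213, with 0.000341 to 0.127 over the alternatives other than the P block). The call was lost without GOLPH3 replicate 2 or 3 or Vector replicate 1 or 3, at 0.0660 to 0.127. AKT1 and AKT2, kinases downstream of PI3K that were named after their values were seen, had log2 differences of 0.65 and 0.51 (standard errors 0.31 and 0.34, limma adjusted p = 0.309 and 0.487).

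Neither of the last 2 roles held a gene that passed without the P block. In the mTOR branch, RPTOR, the scaffold of mTORC1, had the smallest p of 9 genes, with 1931, 2689.9 and 2427 normalized reads under the GOLPH3 label and 1606, 1077 and 1686 under the Vector label (log2 difference 0.70, standard error 0.29, limma adjusted p = 0.229, and a log2 difference of 0.63 under the P block). Among the 6 GSK3 and FOXO genes it belonged to FOXO1, a transcription factor that Akt keeps out of the nucleus, with 282, 157.5 and 241 against 378, 503 and 392 (log2 difference -0.93, standard error 0.33, limma adjusted p = 0.159, and a log2 difference of -0.98 under the P block). In the list as a whole 10 genes did not overlap between the labels, 3 higher and 7 lower, which is 10 of 63 beside 22.0% of all genes tested.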

How the data were processed

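Total RNA of 6 samples, given by the study as HCT-116, was sequenced for the authors by the company Novogene. The sources used here name no role for each tool, but the submitters' processing notes list fastp 0.20.0, HISAT2 2.1.0, Cufflinks, featureCounts 1.6.1 and DESeq2 with the build GRCh38. The unit of the deposited table is a signal, with 1 value for each gene in each library. In every library 100% of nonzero values were whole multiples of 1 step (tolerance 0.05 of a step), so the authors' values are reads divided by a factor per library, without correction for length, and the reads were recovered from them. The strand setting of the counting is not given in the sources used here. Of 60590 rows, 44 repeated an identifier and were added to its first row, and 58367 identifiers (96.4%) matched GENCODE 29, which gave coordinates and exon lengths.

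As the values come normalized, log2(value + 1) of all 6 libraries was fitted with limma 3.58.1 (R 4.3.3, trend in the prior variance). Genes entered when 3 or more libraries reached a value of 1, and Benjamini-Hochberg adjustment ran over all of them. Fold changes on this scale understate the change of low genes. On the recovered reads, edgeR 4.0.16 called 1113 of 16908 genes at an adjusted p under 0.05 and DESeq2 1.42.0 called 1991, beside 1346 of 26536 for limma. No 2 libraries of a group were alike within sampling noise (chi-square per degree of freedom of at least 65.3). Levels were compared between genes as values per kilobase of the union of exons. Promoter sequences are from RefSeq on GRCh38.p14.

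The members and all gene lists were chosen with earlier results of these data known. The genes named are the 10 members, GOLPH3, list genes with an adjusted p under 0.05 (10 at most), the smallest p of each role without one, IGF2, IGF2R, the 5 genes most like IRS4 and genes overlapping it. GAB2, SOCS1, AKT1, AKT2, TRIB3, STC2 and the genes overlapping IGF1 were named after their values were seen. Simulated data were used to test the scripts. Alternatives were another pseudocount, other filters, quantile normalization, edgeR, DESeq2, blocks by replicate and by P number, values within P12 and P13, the longest transcript as length, an unadjusted threshold and each library left out.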

Additional observations from a re-analysis of the deposited data

Results flagged for a closer look

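The log2 difference of INSR between the labels had opposite signs at the P numbers that both labels share. It was -0.062 within P12, where GOLPH3 replicate 2 was set against Vector replicate 1, and 0.29 within P13, where the third replicates were compared. Each value rests on 1 library per label, and the difference between them was not tested. Both are smaller than the spread among the libraries labelled GOLPH3, which spanned 1.58-fold.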

How the results depend on the processing

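Over the alternatives in which they could be compared, the 9 members kept their direction except INSR, which was -0.062 within P12, and IGFBP6, which ranged from -0.18 (without GOLPH3 replicate 3) to 0.82 (without GOLPH3 replicate 1). IRS4 is absent from the comparison without a Vector library when 3 libraries must pass the filter, and was compared then only with a minimum of 2 libraries, added after the data were seen. The number of genes called, 1346 (253 higher, 1093 lower), was 1991 with DESeq2 (603 higher), 405 with a value of at least 1 in every library, 6082 with the P number as a block (2636 higher, 3446 lower) and 4663 at an unadjusted p under 0.05. With 1 library left out it ranged from 459 (without Vector replicate 1) to 1528 (without GOLPH3 replicate 1), with 56 higher and 825 lower without GOLPH3 replicate 3, and without Vector replicates 1 and 3 at a minimum of 2 libraries it was 837 and 717. The 4 pathway genes called became 1 with a pseudocount of 0.1, 2 with a value in every library, 7 with DESeq2, 19 with the P number as a block (10 higher, 9 lower) and 12 at an unadjusted threshold, and between 0 (without Vector replicate 3, under both filters) and 4 with 1 library left out. Without GOLPH3 replicate 2 there was 1, without GOLPH3 replicate 3 or Vector replicate 1 there were 2. With the P block RPTOR and FOXO1 passed. That fit takes the spread of each gene from the difference between the P12 and P13 pairs alone. Its p-values and counts are therefore not comparable with those of the other fits. The cause was not tested. With the longest transcript as length, the Vector levels per kilobase of INSR and GAB1 moved to 86.3 and 35.1. INSRR and IGF2R, not called, ranged from -0.10 to 1.46 and from -0.012 to 0.14 with 1 library left out, and IGF2R was -0.018 after quantile normalization. The replicate numbers did not pair the samples, since deviations of same-numbered libraries correlated at -0.23, -0.15 and 0.26. With the replicate block 1081 genes were called, of which 3 on the pathway list, and ENPP1 lost its call. Libraries sharing P12 or P13 correlated at 0.26 each, and P8 with P11 at 0.33. At 3 reads per library, IGF1, DOK5 and the level of IRS4 under the GOLPH3 label cannot be resolved.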

Other observations

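Among the members, IRS1, IGFBP2 and IGFBP6 had levels ordered by the P number within both labels, lowest at P8, next at P12 and highest at P13 under the GOLPH3 label and lowest at P11, next at P12 and highest at P13 under the Vector label. That is 3 of 9 members compared, and 2258 of 26536 genes (8.51%) had the same order. The reverse order in both labels was held by 0 of the 9 members and by 7.79% of all genes. The labels do not say what the P number is, each number is 1 library per label, and the order was seen in the data and not tested. Of the pathway list, 2 genes were singled out after their values were seen. TRIB3, a pseudokinase that binds Akt, varied widely within the labels, spanning 7.17-fold under the GOLPH3 label and 9.52-fold under the Vector label, with the P12 library highest under both (8844 and 5131 normalized reads). STC2, a stanniocalcin that inhibits PAPP-A, spanned 12.6-fold and 6.63-fold and was also highest in both P12 libraries, with 18503 and 6540 normalized reads.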
